A study of Mus musculus with 6 samples.

Results

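The 19 small nucleolar RNAs (snoRNAs) described here have the length of H/ACA box snoRNAs and lie inside genes that encode ribosomal proteins. They were chosen by annotation: features with the GENCODE gene type snoRNA, up to 170 nt long and longer than box C/D snoRNAs usually are, within a protein-coding ribosomal protein gene on the same strand, leaving out Snord15a, Snord15b and the Snora73 copies. All 19 annotated snoRNAs that meet this rule had reads, out of 1823 features listed in the series. They lie in 16 host genes on 11 chromosomes, 14 of them in genes of large-subunit proteins and 5 in genes of small-subunit proteins. Rpsa, Rpl5 and Rpl27a each hold a pair.

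The libraries came from mice labelled Mat KO (KO), read here as a knockout inherited from the mother, and from wild-type mice (WT), with 3 libraries of each. The material is labelled as bone marrow, and the design entry speaks of Lin- cells, lineage-negative ones, the marrow fraction left after mature blood cells are removed. The series concerns the Dlk1-Gtl2 imprinted locus and rRNA modification. Nothing used here gives the extent of the deletion, the strain, the age, or whether the 3 libraries of a genotype are separate animals. The p-values therefore reflect only how far these 6 libraries vary, which could be technical.

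As a check of the labels, the 10 listed snoRNAs between Dlk1 and Dio3 had 3, 2 and 2 reads in KO replicates 1 to 3, against 87, 106 and 94 reads in WT replicates 1 to 3. Library totals were 47299957 to 51837721 counts in KO and 45398303 to 53299322 counts in WT. Markers of blood cell types fixed as miRNA features had reads, except the erythroid Mir451a, which was not among the features listed in the series. All 11 tested markers had higher estimates in KO, where 255 of all 624 tested features did, and none was called by edgeR. Of the 7 primitive haematopoietic markers, 4 were tested. KO replicate 2 stood apart by lower levels of features over 170 nt.

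H/ACA box snoRNAs are RNAs of a pair of hairpins joined by a hinge, which carries the H box (ANANNA), and closed by a tail with an ACA box. They sit in a particle with the pseudouridine synthase dyskerin (Dkc1) and its partners Nhp2, Nop10 and Gar1, and base-pair with ribosomal RNA to place pseudouridines. In mammals most are cut out of introns after splicing, so a ribosomal protein gene yields an mRNA for the ribosome and a guide RNA for its rRNA from a single transcript. Haematopoietic progenitors make many ribosomes, and mutations in dyskerin in human cause bone marrow failure.

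The length label was checked against the sequence of all 19, taken from the GENCODE M21 transcripts (GRCm38) and searched on the RNA strand. The letters ACA stood exactly 3 nt before the annotated 3′ end in 18 of 19 (94.7%), against 69.4% of 170 H/ACA-length snoRNAs in other places and 2.78% of 36 C/D-length snoRNAs (65 to 104 nt) in ribosomal protein genes. ANANNA was found in the central stretch of 18 of 19 (94.7%), against 94.7% and 38.9% in the same lists. Both were found in 17 of 19 (89.5%), against 67.1% and 0%. The 170 in other places were taken by gene type and length, and include features named Snord118, Snord22, Mir3068 and Mir1949. They need not all be H/ACA box snoRNAs. The central stretch is the middle of 3 equal parts, and a match was counted where its own midpoint lay there. The match of Gm24044 starts at nt 101 of 156 and runs past the end of that stretch. A match describes letters only, and whether that of Gm24044 lies at the hinge was not tested. Lengths ran from 125 to 156 nt and GC content from 37.6% to 60.45%.

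The sequences that the results turn on are printed 5′ to 3′ as DNA letters, with the ANANNA match nearest the middle and the ACA match in capitals. Gm24044 of Rpsa (chr9:120128780-120128935, plus strand) varied most between libraries. The Rpl5 pair, Gm22270 (chr5:107905177-107905308, plus strand) and Gm26387 (chr5:107907345-107907476, plus strand), is nearly identical in sequence. The members of the Rpl27a pair, Snora3 (chr7:109520120-109520251, plus strand) and Gm24888 (chr7:109521280-109521409, plus strand), differ more. AF357399 of Rps16 (chr7:28351508-28351632, plus strand) lacked the ACA match at its annotated end, and Snora65 of Rpl12 (chr2:32963291-32963420, plus strand) lacked the ANANNA match.
Gm24044: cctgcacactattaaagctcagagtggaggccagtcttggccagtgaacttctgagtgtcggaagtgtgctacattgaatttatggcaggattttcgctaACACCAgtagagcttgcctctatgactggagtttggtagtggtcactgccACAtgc
Gm22270: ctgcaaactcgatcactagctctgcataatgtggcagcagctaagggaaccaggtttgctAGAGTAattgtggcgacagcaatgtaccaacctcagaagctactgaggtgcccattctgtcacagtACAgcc
Gm26387: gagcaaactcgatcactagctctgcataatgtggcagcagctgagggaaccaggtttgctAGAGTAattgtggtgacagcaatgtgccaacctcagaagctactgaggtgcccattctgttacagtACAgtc
Snora3: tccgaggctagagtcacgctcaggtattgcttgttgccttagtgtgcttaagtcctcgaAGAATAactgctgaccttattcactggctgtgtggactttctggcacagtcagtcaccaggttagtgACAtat
Gm24888: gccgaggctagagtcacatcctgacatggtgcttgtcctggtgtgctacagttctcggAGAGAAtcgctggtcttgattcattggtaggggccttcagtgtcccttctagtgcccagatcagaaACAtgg
AF357399: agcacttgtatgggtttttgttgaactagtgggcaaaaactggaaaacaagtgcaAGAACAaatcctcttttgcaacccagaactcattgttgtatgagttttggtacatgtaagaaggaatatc
Snora65: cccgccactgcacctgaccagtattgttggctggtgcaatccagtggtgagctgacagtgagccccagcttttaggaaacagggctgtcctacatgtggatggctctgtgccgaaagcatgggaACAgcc
The Rpl5 pair differed by 7 edits over 132 nt (94.7% identity). The Rpsa pair, Gm24044 and Snora62, was 66.0% identical and the Rpl27a pair 65.2%, and each is the other's nearest relative among the 19. For each of the others, the nearest of the 19 by number of edits was at most 53.3% identical.

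All 19 lay within an intron of their host's principal coding transcript, and 12 of them also overlapped an exon of another annotated transcript of the host. The introns were 206 to 2294 nt long, with a median of 535 nt. The distance to the next exon downstream was 49 to 2064 nt (median 191), and to the exon upstream 26 to 942 nt (median 157). Across the 19, Spearman's rho of the mean level per kilobase with intron length was -0.25, with distance to the upstream exon -0.33 and with distance to the downstream exon -0.06, given as a description over snoRNAs that share libraries.

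**Figure D1:**
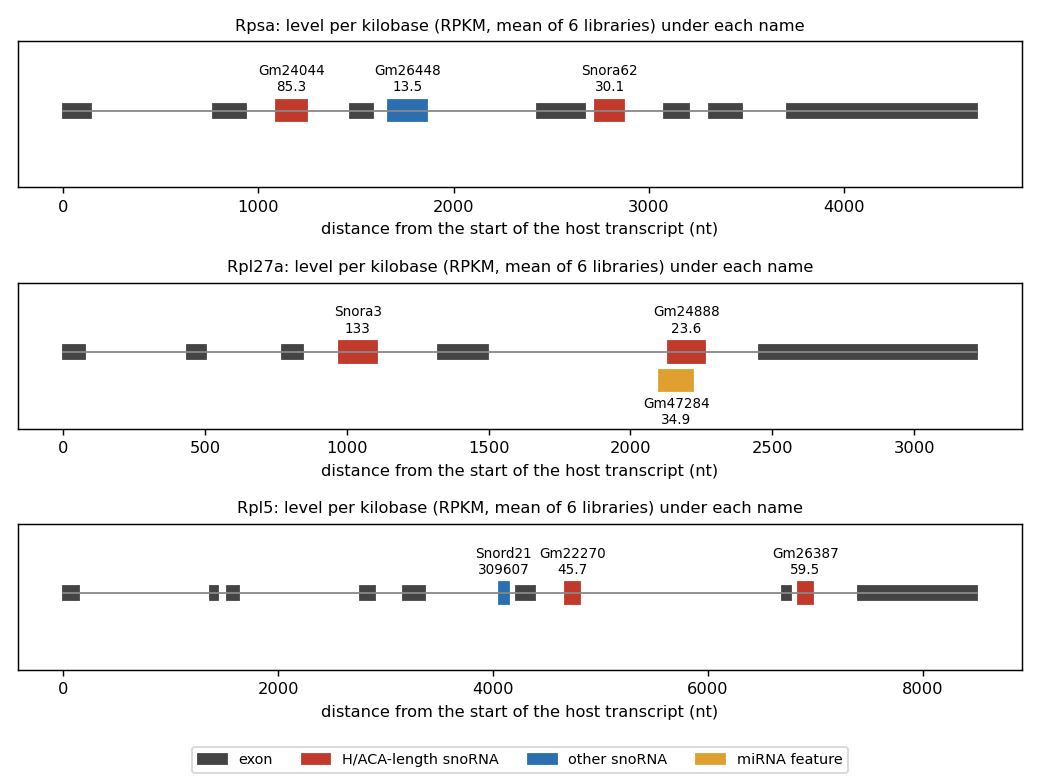
Host genes with a pair of H/ACA-length snoRNAs, drawn to scale from the start of the principal coding transcript (x axis, nt), with exons in grey, H/ACA-length snoRNAs in red, other snoRNAs in blue and a miRNA feature in yellow. The number under each name is the mean level of 6 libraries in RPKM: 85.3 for Gm24044 and 30.1 for Snora62 in Rpsa, 133 for Snora3 and 23.6 for Gm24888 in Rpl27a, 45.7 for Gm22270 and 59.5 for Gm26387 in Rpl5.

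The H/ACA-length snoRNAs of ribosomal protein genes were rare next to the C/D-length snoRNAs of ribosomal protein genes. C/D box snoRNAs guide ribose methylation. Together the 19 took 0.0175% to 0.0599% of a library's counts, whereas the 36 C/D-length snoRNAs in ribosomal protein genes took 23.8% to 28.05%. For comparison between genes, levels are given as RPKM, CPM (the count scaled to 1e+06 counts of the library) per kilobase of the feature. The median of the mean level per kilobase was 36.5 RPKM for the 19 (range 0.850 to 1661) and 5273 RPKM for the 36 C/D-length snoRNAs. For the 170 H/ACA-length snoRNAs in other places it was 3.81 RPKM (range 0.0226 to 27277). Of these 170, 100 passed the expression filter, against 18 of the 19. Among those that passed, the medians were 16.7 RPKM in other places and 41.1 RPKM in ribosomal protein genes.

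The same order was seen within the host genes Rpl5, Rps12 and Rpl21, but not within Rpl23. In Rpl5, the C/D box snoRNA Snord21 had 291597 ± 14001 RPKM in KO and 327617 ± 34699 RPKM in WT (SD, n = 3 each), whereas Gm22270 of the same gene had 41.3 ± 6.3 RPKM in KO and 50.1 ± 2.7 RPKM in WT. The level per kilobase of Snord21 was 5988 to 8390 times that of Gm22270 over the 6 libraries, and 3512 to 7529 times that of Gm26387. In Rps12, Gm23130 stood 4120 to 7028 times above Snora33, and Snord100 stood 48.5 to 141 times above it. In Rpl21, Gm25091 stood 121338 to 303284 times above Gm23202, which had 3 to 9 reads per library. In Rpl23 the C/D-length Gm27326 averaged 0.66 RPKM over the 6 libraries, below Snora21 at 67.3 RPKM. Per the labels' protocols the libraries were cut from a gel by size, so levels per kilobase of RNAs of different length also carry that step, whose part was not tested.

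**Figure D2:**
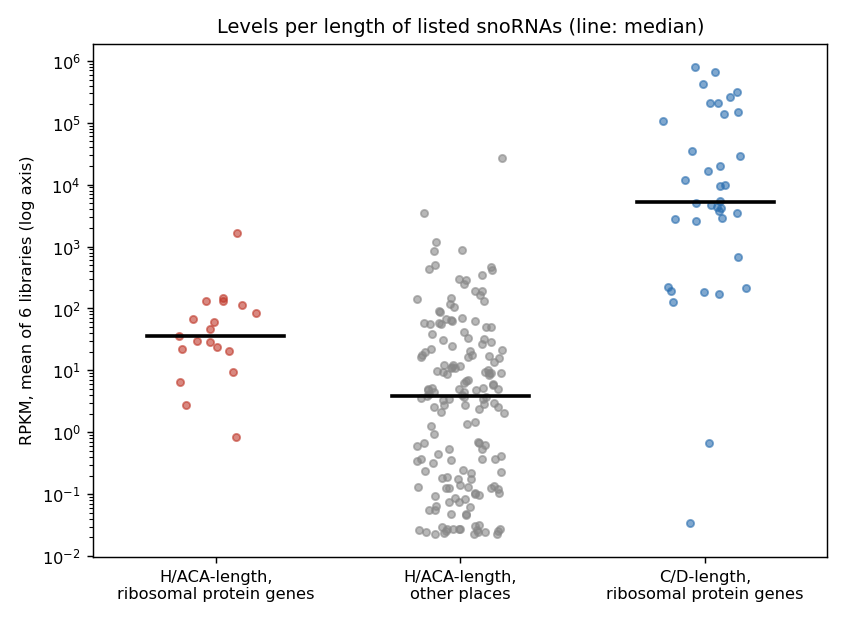
Mean level over the 6 libraries in RPKM (log axis) of each listed H/ACA-length snoRNA in ribosomal protein genes (19), H/ACA-length snoRNA in other places (170) and C/D-length snoRNA in ribosomal protein genes (36), with the median as a line. The medians are 36.5, 3.81 and 5273 RPKM.

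Snora68 was the most abundant of the 19. In human the snoRNA of this name guides pseudouridylation of large-subunit rRNA. Its level was 289, 80.1 and 160.3 CPM in KO replicates 1 to 3, against 172, 154 and 449.5 CPM in WT replicates 1 to 3. The genotypes overlapped, WT replicate 3 was the highest library and KO replicate 2 the lowest, and the library values spanned 5.61-fold. Snora68 made up 45.8% to 75.1% of the counts of all 19 in a library, and its mean level per kilobase was 11.4-fold above that of the next, Snora64.

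A group of 5 followed with 85.3 to 146 RPKM on average. Snora64, in Rps2, a small-subunit protein near the mRNA entry site, had 20.8, 12.6 and 17.2 CPM in KO replicates 1 to 3, against 23.6, 19.3 and 24.1 CPM in WT replicates 1 to 3. In human its namesake guides pseudouridylation of large-subunit rRNA. KO replicate 2 was the lowest library for it and the genotypes overlapped. AF357399 in Rps16, another small-subunit gene, had 11.2, 16.5 and 19.8 CPM in KO replicates 1 to 3, against 22.9, 12.1 and 18.001 CPM in WT replicates 1 to 3. For it KO replicate 1 was the lowest and WT replicate 1 the highest. Snora3 in Rpl27a had 17.2, 12.2 and 18.7 CPM in KO replicates 1 to 3, against 20.2, 16.5 and 20.6 CPM in WT replicates 1 to 3. Gm24523 in Rpl30, whose symbol is provisional, had 11.4, 14.99 and 16.6 CPM in KO replicates 1 to 3, against 18.6, 13.8 and 14.1 CPM in WT replicates 1 to 3. Neither of these had separate genotypes. The order within this group was not stable: Snora64 was above AF357399, and AF357399 above Snora3, in 3 of 6 libraries each. Of the 18 neighbouring ranks in the whole order, 4 held in all 6 libraries: Snora68 above Snora64, Snora69 above Snora70, Snora65 above Gm26205 and Gm26205 above Gm23202.

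Gm24044 closed this group and was the most variable of the 19. It lies in intron 2 of Rpsa, which encodes a small-subunit protein also known as the laminin receptor and mutated in human congenital asplenia. It had 1381, 169 and 259 reads in KO replicates 1 to 3, against 501, 691 and 914 reads in WT replicates 1 to 3, or 28.5, 3.26 and 5.48 CPM in KO replicates 1 to 3, against 9.40, 15.2 and 18.001 CPM in WT replicates 1 to 3. KO replicate 1 was the highest of all 6 libraries and KO replicates 2 and 3 the lowest, an 8.74-fold span. Snora62, from intron 4 of the same gene, did not follow this. In human its namesake guides pseudouridylation of large-subunit rRNA. It had 180, 146 and 182 reads in KO replicates 1 to 3, against 298, 261 and 262 reads in WT replicates 1 to 3, or 3.71, 2.82 and 3.85 CPM in KO replicates 1 to 3, against 5.59, 5.75 and 5.16 CPM in WT replicates 1 to 3. The level per kilobase of Gm24044 over that of Snora62 was 7.33, 1.11 and 1.36 in KO replicates 1 to 3, against 1.61, 2.53 and 3.33 in WT replicates 1 to 3. Another snoRNA of Rpsa, Gm26448, is 203 nt long and falls outside the length rule. It averaged 2.06 ± 0.64 CPM in KO and 3.43 ± 0.12 CPM in WT (SD, n = 3 each). On the other side of the rule, the shortest of the 19 was AF357399 with 125 nt, and no snoRNA of the C/D-length list was longer than 104 nt.

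The near-identical Rpl5 pair had similar levels. Rpl5 binds the smallest ribosomal RNA and, when free of ribosomes, the p53 regulator Mdm2. Gm22270, in intron 6 of 7, had 5.28, 4.73 and 6.36 CPM in KO replicates 1 to 3, against 7.02, 6.498 and 6.34 CPM in WT replicates 1 to 3. WT replicate 3 lay just below KO replicate 3, and the other libraries were separate by genotype. Gm26387, in the last intron, had 6.75, 5.27 and 6.19 CPM in KO replicates 1 to 3, against 11.6, 6.498 and 10.8 CPM in WT replicates 1 to 3. For Gm26387 WT replicates 1 and 3 were high and WT replicate 2 lay within the KO range. The ratio of Gm26387 to Gm22270 was 1.28, 1.11 and 0.973 in KO replicates 1 to 3, against 1.66, 1 and 1.705 in WT replicates 1 to 3. With 7 edits between them, reads could have been split between this pair, and how the authors treated reads with several matches is not stated in anything used here.

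In Rpl27a, Gm24888 had 2.41, 2.95 and 3.21 CPM in KO replicates 1 to 3, against 4.503, 2.91 and 2.40 CPM in WT replicates 1 to 3, below Snora3 of the same gene in each library (4.07 to 8.44 times per kilobase). The genotypes overlapped. A miRNA feature of GENCODE, Gm47284, shares 89 nt with Gm24888 on the same strand and had 3.76 ± 0.20 CPM in KO and 4.63 ± 0.54 CPM in WT (SD, n = 3 each), so reads of the shared stretch cannot be assigned to either.

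The snoRNAs of lower level mostly gave overlapping genotypes. Snora21 in Rpl23, whose human namesake guides pseudouridylation of large-subunit rRNA, had 8.05, 7.83 and 10.2 CPM in KO replicates 1 to 3, against 11.2, 8.02 and 10.1 CPM in WT replicates 1 to 3. Snora33 in Rps12 had 5.84, 3.14 and 3.15 CPM in KO replicates 1 to 3, against 6.27, 4.47 and 5.38 CPM in WT replicates 1 to 3. KO replicates 2 and 3 were the lowest for Snora33, with KO replicate 1 inside the WT range. Snora52 lies in Rplp2, which encodes an acidic protein of the ribosomal stalk, and had 4.60, 2.80 and 3.55 CPM in KO replicates 1 to 3, against 4.18, 4.41 and 4.43 CPM in WT replicates 1 to 3. Snora7a lies in intron 1 of Rpl32, where another annotated transcript places an exon, and had 4.17, 1.37 and 2.16 CPM in KO replicates 1 to 3, against 3.02, 3.02 and 4.65 CPM in WT replicates 1 to 3. KO replicate 2 was the lowest library for both. Snora69 in Rpl39, a protein of the exit tunnel, had 2.06, 2.49 and 2.90 CPM in KO replicates 1 to 3, against 3.43, 2.36 and 2.66 CPM in WT replicates 1 to 3. Snora70 lies in Rpl10, which joins the large subunit late in its assembly, and its human namesake guides pseudouridylation of small-subunit rRNA. It had 1.26, 0.810 and 1.06 CPM in KO replicates 1 to 3, against 1.84, 1.65 and 0.985 CPM in WT replicates 1 to 3. WT replicate 3 fell within the KO range for Snora70, and the genotypes also overlapped for Snora69.

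Of the least abundant, Snora65 in Rpl12, whose human namesake guides pseudouridylation of large-subunit rRNA, had 28, 40 and 40 reads in KO replicates 1 to 3, against 51, 44 and 44 reads in WT replicates 1 to 3. Each KO library lay below each WT library in CPM, with 0.578, 0.772 and 0.846 CPM in KO and 0.957, 0.969 and 0.867 CPM in WT replicates 1 to 3. Gm26205 in intron 1 of Rpl6 had 25, 12 and 11 reads in KO replicates 1 to 3, against 27, 14 and 23 reads in WT replicates 1 to 3, and the genotypes overlapped. Gm23202 in Rpl21 had 5, 9 and 4 reads in KO replicates 1 to 3, against 6, 3 and 6 reads in WT replicates 1 to 3. It was the only snoRNA of the 19 that did not pass the expression filter, and its pooled ratio of KO over WT was 1.22 with a 95% exact counting interval of 0.578 to 2.59.

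**Figure D3:**
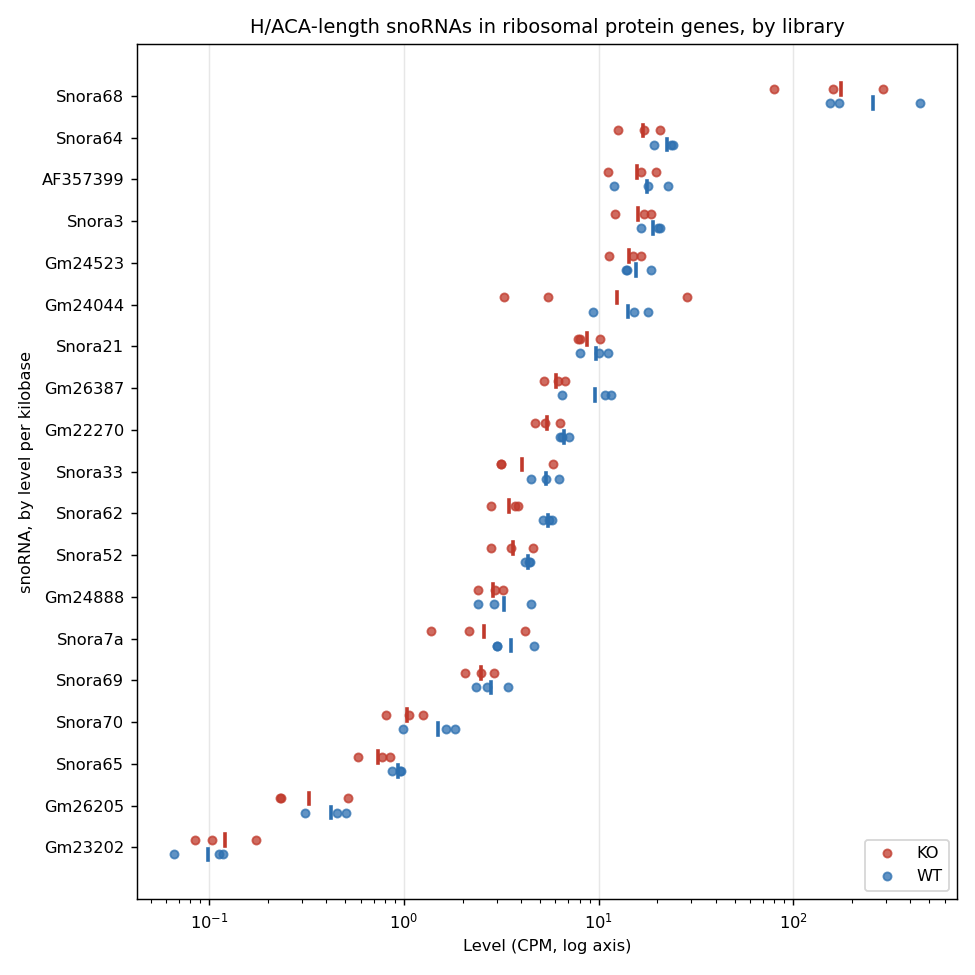
Level of each of the 19 snoRNAs in each library in CPM (log axis), KO libraries in red above WT libraries in blue, with a bar at the mean of 3 libraries; rows run from the highest mean level per kilobase at the top. Snora68 stands at 80.1 to 449.5 CPM, and Snora62 and Snora65 are the rows where the red and blue points do not overlap.

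The comparison of genotypes asks whether these H/ACA-length snoRNAs differ in level in Mat KO cells. In bulk libraries, fewer cells of a type and less RNA per cell cannot be told apart. None of the 18 that passed the expression filter was called by edgeR's quasi-likelihood test (threshold 0.05 after Benjamini-Hochberg adjustment over the 624 features that passed the filter), and none of the 19 by DESeq2. Of those 624, 1 was called (0.16%), the locus snoRNA DQ267100. The 18 tested snoRNAs had adjusted p of 0.710 to 0.971 and log2 fold changes (KO over WT) of -0.61 to -0.05, with standard errors of 0.22 to 0.81. The log2 fold change was smaller in size than its standard error in 13 of the 18, and smaller than 2 standard errors in 16. At an unadjusted p under 0.05 there was 1, Snora62, where 4.33% of all tested features passed that limit in the same direction. KO lay wholly below WT by CPM in 2 of 18, Snora62 and Snora65, where 12.5% of all tested features did so. Neither count stands apart from its background.

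Snora62 averaged 3.46 ± 0.561 CPM in KO and 5.50 ± 0.305 CPM in WT (SD, n = 3 each). Its log2 fold change was -0.61 (SE 0.24), with a p of 0.0394 unadjusted and 0.710 adjusted by edgeR. It was the estimate furthest from 0 among the 18, and it stayed below 0 with any 1 library left out (-0.61 to -0.42) and with TMM, RLE, library size alone or the H/ACA-length scaling. Gm26387 averaged 6.07 ± 0.748 CPM in KO and 9.65 ± 2.76 CPM in WT (SD, n = 3 each), with a log2 fold change of -0.60 (SE 0.29, adjusted p = 0.710 by edgeR), and -0.74 to -0.36 with any 1 library left out. Its near copy Gm22270 averaged 5.46 ± 0.833 CPM in KO and 6.62 ± 0.354 CPM in WT (SD, n = 3 each) with a log2 fold change of -0.22 (SE 0.22), and -0.061 without KO replicate 2. Counted as 1 feature, which was added after seeing the values, the pair had a log2 fold change of -0.44 (SE 0.23, adjusted p = 0.722 by edgeR).

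The abundant and variable snoRNAs had wide errors. Snora68 averaged 177 ± 106 CPM in KO and 258 ± 166 CPM in WT (SD, n = 3 each) with a log2 fold change of -0.48 (SE 0.58), and that value was 0.28 without WT replicate 3 and -0.998 without KO replicate 1. Gm24044 averaged 12.4 ± 13.97 CPM in KO and 14.2 ± 4.39 CPM in WT (SD, n = 3 each) with a log2 fold change of -0.10 (SE 0.81), which leaving out KO replicate 1 turned to -1.58 and leaving out KO replicate 2 to 0.40. Snora64 averaged 16.9 ± 4.11 CPM in KO and 22.4 ± 2.66 CPM in WT (SD, n = 3 each) with a log2 fold change of -0.34 (SE 0.26), and -0.11 without KO replicate 2. For Snora3, AF357399, Gm24523, Snora21, Snora33 and Gm24888 the log2 fold changes were -0.19, -0.10, -0.05, -0.11, -0.33 and -0.13. For Snora33, leaving out KO replicate 1 gave -0.63, and leaving out KO replicate 2, KO replicate 3 or WT replicate 1 gave -0.12.

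All 18 tested estimates were below 0, where 59.1% of all tested features were, and the number below 0 depends on the scaling. The median log2 fold change of the 18 was -0.25, against -0.08 over all 624 features. With library size alone 18 of 18 were lower, against 64.3% of all features. With RLE size factors 16 of 18 were lower, against 47.6% of all features, and the median was -0.15. With DESeq2, which tested all 19, 12 of 19 were lower, against 49.2% of all features, and the median was -0.04. With no expression filter edgeR gave 17 of 19 lower, against 54.9% of all features. Scaled on the H/ACA-length snoRNAs in other places, a setting added after seeing the values, 5 of 18 were lower and 13 higher. The median of the 18 was 0.16, and 21.6% of all features were lower. With TMM, 86 of the 100 tested reference snoRNAs were lower (median -0.30), so scaling on them moves estimates up. That scaling moves the median of all features to 0.31, and the median of the 18 minus the median of all features was -0.15 there and -0.17 with TMM. Over the settings tried it was -0.36 to -0.06.

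The H/ACA-length snoRNAs outside ribosomal protein genes also had mostly lower estimates. Of 100 tested, 86 were lower in KO, with a median log2 fold change of -0.30. None was called by edgeR and 7 had an unadjusted p under 0.05, where 40 of all 624 tested features did. KO lay wholly below WT by CPM in 22 of the 100 and wholly above in 2, against 78 and 17 of all 624. The C/D-length snoRNAs of ribosomal protein genes had 17 of 34 lower and a median of 0.00. None was called by edgeR and 1 had an unadjusted p under 0.05. KO lay wholly below WT by CPM in 1 of the 34 and wholly above in 2. By subunit, the 13 tested snoRNAs in large-subunit genes had a median log2 fold change of -0.22 and the 5 in small-subunit genes -0.33. These medians are descriptions with no test, and the difference between the lists was not tested. The other tested snoRNAs of the same hosts were not called by edgeR either. Snord21 of Rpl5 had a log2 fold change of -0.10 (SE 0.09), Gm23130 of Rps12 -0.45 (SE 0.31), Snord100 of Rps12 0.19 (SE 0.25), Gm25091 of Rpl21 0.14 (SE 0.10) and Gm26448 of Rpsa -0.67 (SE 0.31). In Rps12, Snora33 and Gm23130 thus had estimates below 0 and Snord100 above 0. The 2 small Cajal body RNAs (scaRNAs), kin of the snoRNAs that guide modification of spliceosomal RNAs, both had lower estimates and were not called.

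**Figure D4:**
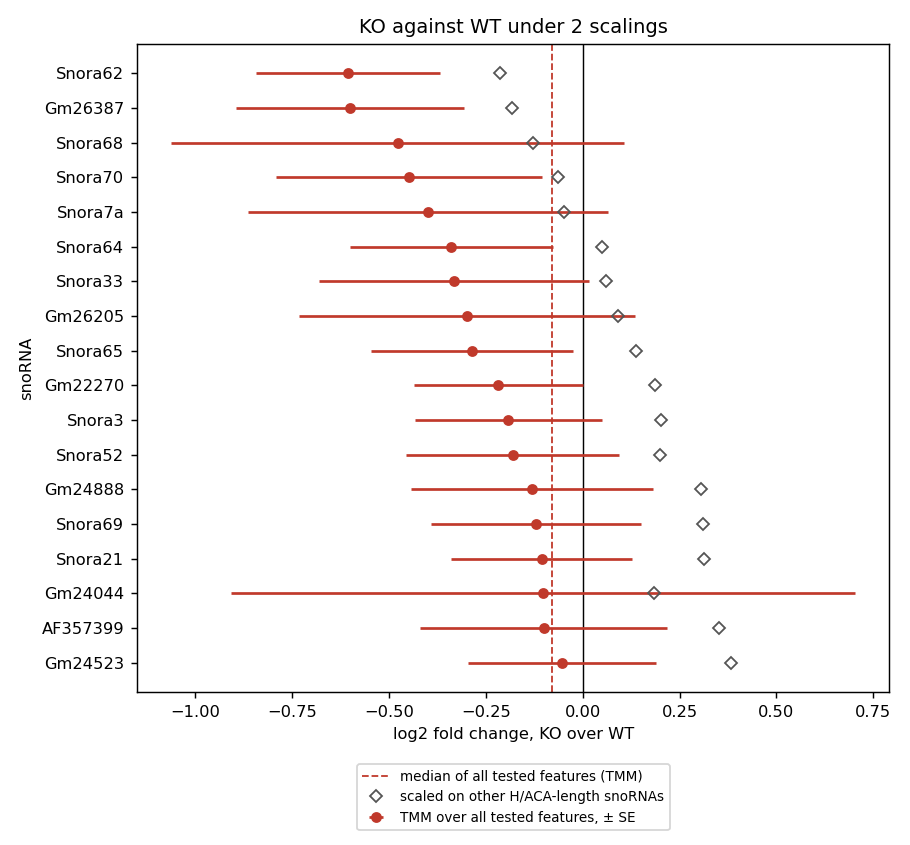
Log2 fold change, KO over WT (x axis), of the 18 tested snoRNAs with TMM scaling (red, bars show the standard error) and scaled on H/ACA-length snoRNAs in other places (open diamonds); the dashed line marks the median of all 624 features with TMM. All red points lie below 0, and 13 of 18 diamonds lie above 0.

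KO replicate 2 was the lowest of the 6 libraries by CPM for 13 of the 18, KO replicate 1 for 4 and WT replicate 3 for 1. WT replicate 1 was the highest for 9. Relative to the mean of the 6 libraries, on log2 CPM with TMM scaling, the median of the 18 was 0.00, -0.44 and -0.20 in KO replicates 1 to 3, against 0.28, -0.06 and 0.18 in WT replicates 1 to 3. The 100 H/ACA-length snoRNAs in other places had 0.02, -0.54 and -0.17 in KO replicates 1 to 3, against 0.27, 0.07 and 0.26 in WT replicates 1 to 3. Without KO replicate 2, 14 of 18 were lower, against 49.1% of all features, with a median of -0.06, against 0.01 over all features. KO replicate 2 was also low for longer features: 67 features over 170 and up to 350 nt had a median of -0.83 in it and 0.51 in KO replicate 1, whereas 85 features over 90 nt but below the H/ACA lengths had 0.32 and -0.14. The part of this length pattern in the lower estimates was not tested.

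The 19 were not uniform in this. On the same scale KO replicate 1 exceeded KO replicate 2 by 3.13 for Gm24044, and the lowest difference was -0.53, for AF357399. The difference was above 0 for 13 of 18, with a median of 0.46. These 2 snoRNAs are the longest and the shortest of the 19. Over the 18, Spearman's rho of this difference with length was 0.50 and with GC content 0.43. Over the 100 H/ACA-length snoRNAs in other places it was 0.24 with length and 0.54 with GC content. These values describe features that share 2 libraries.

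**Figure D5:**
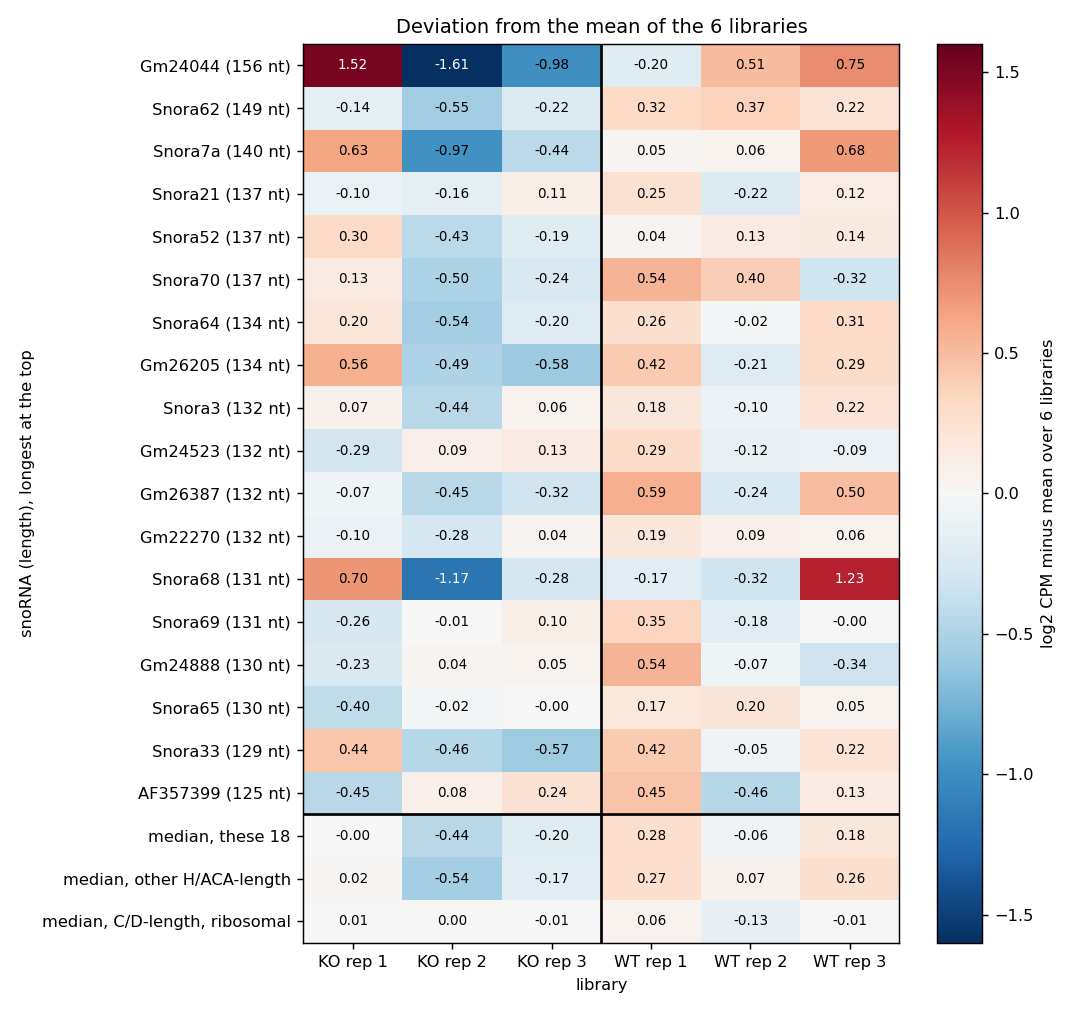
Deviation of each tested snoRNA from its mean over the 6 libraries, in log2 CPM with TMM scaling (colour and number), with KO libraries left of WT libraries, the longest snoRNA at the top and list medians in the last 3 rows. The median of the 18 is -0.44 in KO replicate 2, and Gm24044 runs from -1.61 in KO replicate 2 to 1.52 in KO replicate 1.

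The summed level of the 19 followed Snora68. It was 424, 175 and 282 CPM in KO replicates 1 to 3, against 327, 278 and 599 CPM in WT replicates 1 to 3. The genotypes overlapped. The mean was 294 ± 125 CPM in KO and 401 ± 173 CPM in WT (SD, n = 3 each), a ratio of 0.732 that is within the spread. Without Snora68 the sum was 117 ± 20 CPM in KO and 143 ± 17 CPM in WT, a ratio of 0.820, and KO replicate 1 still lay above WT replicate 2.

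Near copies elsewhere in the genome limit some of these counts. For 9 of the 19, another listed feature was at least 90% identical or shared positions. Snora65 had 108 reads in KO and 139 in WT, while 3 near copies outside ribosomal protein genes had 1136 and 1367, nearly all of them on Gm24613, which differs by 2 edits. Summed with them, its log2 fold change was -0.16 (SE 0.52) in place of -0.29 (SE 0.26), and its own value was -0.068 without KO replicate 1. Snora70 had 153 reads in KO and 223 in WT, and its copy in Snx5, Gm26165, had 199 and 209. Snora21 had 1278 and 1471, and its copy Gm23795, which differs by 3 edits, had 511 and 647. The copies of Snora68, Snora3 and Snora33 had at most 14 reads per genotype.

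The levels of cell type markers moved between libraries too. The summed miRNA features of the primitive haematopoietic list, with 7 of 7 listed, were 84.1 to 131 CPM in KO and 57.5 to 135 CPM in WT. The myeloid list (2 of 2) had 15.5 to 23.2 CPM in KO and 9.68 to 21.1 CPM in WT. The list fixed as T lymphoid (2 of 2), Mir181a-1 and Mir181a-2, had 13.7 to 37.04 CPM in KO and 12.8 to 24.2 CPM in WT. Whether these 2 features report T cells in this marrow fraction was not tested. The erythroid list (2 of 3, with Mir451a not listed) had 0.846 to 1.68 CPM in KO and 0.657 to 1.18 CPM in WT. The B lymphoid marker Mir150 had 4.002 to 6.09 CPM in KO and 0.694 to 3.19 CPM in WT. Each KO library lay above each WT library for it, as for 17 of all 624 tested features. Their part in the levels of the 19 snoRNAs was not tested.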

How the data were processed

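Small RNA libraries of total RNA were made with the NEBNext small RNA kit, size-selected on a gel and read on a NovaSeq, per the labels' protocols. The submitters' processing notes name Trimmomatic 0.38, Bowtie2 2.3.4.1 and GRCm38. The authors deposited raw read counts per feature for each library. The counting tool, its use of strand and its treatment of reads with several matches are given nowhere in the sources used here, and reads are not independent molecules, so intervals cover counting error only.

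Features were matched to GENCODE M21 by start and end, and 1822 of 1823 matched. Sequences came from the GENCODE M21 transcripts. CPM is the count scaled to 1e+06 counts of the library. RPKM divides it by feature length in kb. KO and WT were compared with edgeR 4.0.16 in R 4.3.3: default expression filter (minimum count 10), TMM scaling, quasi-likelihood test, two-sided, Benjamini-Hochberg adjustment over the 624 features tested, threshold 0.05. The standard error is the log2 fold change divided by the root of F. DESeq2 1.42.0, other scalings and filters, left-out libraries, a replicate block and summed copies were alternatives. Values on the log2 CPM scale used a prior count of 2. The fit was tested on simulated data.

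The members and lists were chosen with earlier results of these data known. The rule for naming gave full values to the 10 highest by mean CPM, to any with an unadjusted p under 0.05 or separate genotypes, and to hosts with a pair. The other members are given so that all 19 are accounted for. Replicate pairs within a genotype differed by far more than counting noise. Some items, among them a few sequences and host genes, are not reported here.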

Additional observations from a re-analysis of the deposited data

How the results depend on the processing

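None of the 19 snoRNAs was called under any of the settings tried. Of 194 log2 fold changes of named snoRNAs under the alternatives, 157 stayed below 0 and 37 turned above 0; the cause was not tested. With DESeq2 the values above 0 were 0.080 for AF357399, 0.043 for Gm24044, 0.13 for Gm24523, 0.053 for Gm24888 and 0.068 for Snora21. With RLE size factors they were 0.0055 for AF357399 and 0.054 for Gm24523. Gm24523 was at 0.023 with at least 50 counts in 3 libraries, 0.021 with copies summed and 0.0030 with no filter. Copies here are features of identical sequence, or that overlap each other by at least 80% of their length. Scaled on the H/ACA-length snoRNAs in other places, a setting chosen after seeing the data like the summing of near copies, the values were 0.35 for AF357399, 0.19 for Gm22270, 0.18 for Gm24044, 0.38 for Gm24523, 0.31 for Gm24888, 0.31 for Snora21, 0.20 for Snora3, 0.059 for Snora33, 0.049 for Snora64 and 0.14 for Snora65. In that setting 5 of 18 were lower, against 21.6% of all features, and the median was 0.16.

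With any 1 library left out the ranges were -0.23 to 0.21 for AF357399, -1.58 to 0.40 for Gm24044, -0.083 to 0.19 for Gm24523, -0.22 to 0.26 for Gm24888, -0.15 to 0.088 for Snora21, -0.24 to 0.037 for Snora3 and -0.998 to 0.28 for Snora68. Values that stayed below 0 ranged from -0.46 to -0.11 for Snora64, -0.63 to -0.12 for Snora33, -0.26 to -0.061 for Gm22270, -0.31 to -0.068 for Snora65, -0.74 to -0.36 for Gm26387 and -0.61 to -0.42 for Snora62. Between 13 and 17 of 18 were lower, against 46.4% to 52.5% of all features. The median of the 18 was -0.39 to -0.06, and the ratio of the summed CPM was 0.569 to 0.971. With a library left out, 0 to 1 features were called among all those tested, 2 by DESeq2 and 13 with no filter.

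Same-numbered KO and WT libraries had correlations of -0.13, 0.40 and -0.36 in their deviations from the genotype mean. KO replicate 1 correlated best with WT replicate 3 (0.59), KO replicate 2 with WT replicate 2 (0.40) and KO replicate 3 with WT replicate 1 (0.27). With 3 libraries per genotype these values are tied together. They cannot settle whether the replicate numbers pair the libraries. With a replicate block, 18 of 18 were lower, the median was -0.33 and 0 features were called, with 46 at an unadjusted p under 0.05. With 3 libraries against 3, a permutation test of a single value cannot go below 0.1.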
